A study of Danio rerio with 6 samples.

Results

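The genes described here encode Tdp2 and the nuclease machinery that can act in place of Tdp1 at a DNA end blocked by a trapped topoisomerase. They are *tdp2b*, *ercc4* and its partner *ercc1*, *mus81* and its partner *eme1*, the scaffold gene *slx4*, the 3 genes of the Mre11 complex (*mre11a*, *rad50* and *nbn*) and *rbbp8*. They were chosen by name for this role, and 9 of the 10 listed have a row of the array table that the platform annotation assigns to exactly 1 gene symbol, among 19260 genes with such a row. The row that carries the name *slx4* lists that symbol for more than 1 gene ID and is not analysed here. Each of the 9 genes has a single row, so no choice between rows was needed.

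The arrays compare 3 samples of *tdp1-/-* embryos with 3 samples of *tdp1WT* embryos, all whole zebrafish embryos at 5 dpf. Every sample came from embryos kept in 500 nM camptothecin (CPT), a drug that traps topoisomerase 1 (Top1) on DNA, for 16 hours, so that both genotypes carry the treatment and no untreated array is present. The mutants were made with CRISPR-Cas9 and carry frameshift deletions (alleles SH475 and SH476) in the first coding exon of *tdp1*, in a mixed London wild-type and nacre background. Which allele combination and how many embryos went into each array is not given in these sources. The values are robust multi-array average (RMA) values on the log2 scale, so a difference of 1 is a doubling, and each gene was compared between genotypes with limma's moderated test fitted over all 75212 rows. A gene is called higher or lower below where it passed both an unadjusted p of 0.05 and the study's fold change threshold of 1.2, and the Benjamini-Hochberg adjusted p over all rows is given beside it.

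When Top1 is trapped, its active-site tyrosine stays bound to the 3′ end of a nicked strand. Tdp1 hydrolyses that bond directly. In its absence the blocked end can be removed with a piece of DNA by a structure-specific nuclease, such as Xpf-Ercc1, Mus81-Eme1 or the Mre11 complex with its cofactor CtIP (the product of *rbbp8*). Tdp2 is the phosphodiesterase that prefers the 5′ tyrosyl bond left by topoisomerase 2, and in vertebrate cells it has also been linked to Top1 repair when Tdp1 is missing. The comparison asks whether embryos without Tdp1 hold more transcript of any of these alternatives while Top1 is being trapped.

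None of the 9 genes was called higher in CPT-treated *tdp1-/-* embryos, and 1 of them, *rad50*, was called lower. Over all genes the same rule called 0.852% higher and 1.04% lower, and over all rows, most of which have no gene symbol, 2.28% higher and 1.29% lower (1718 and 970 rows, which became 1566 and 1548 once the arrays were quantile normalized again). Of the 9 genes, 8 had a negative log2 fold change and only *ercc1* a positive one, against 51.4% negative over all genes. The median log2 fold change of the 9 was -0.26, beside -0.005 over all genes, and it was -0.14 without *tdp1-/-* replicate 1. No gene of the 9 was under an adjusted p of 0.05 in limma, where all had an adjusted p of 1, and 1 was under an unadjusted p of 0.05. The same held for the whole array: 0 of the 75212 rows were under an adjusted p of 0.05 in limma, and the lowest was 0.0608. The adjusted p therefore does not set the 9 genes apart from other rows. In whole embryos, fewer cells that express a gene and less RNA per cell cannot be told apart.

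**Figure D1:**
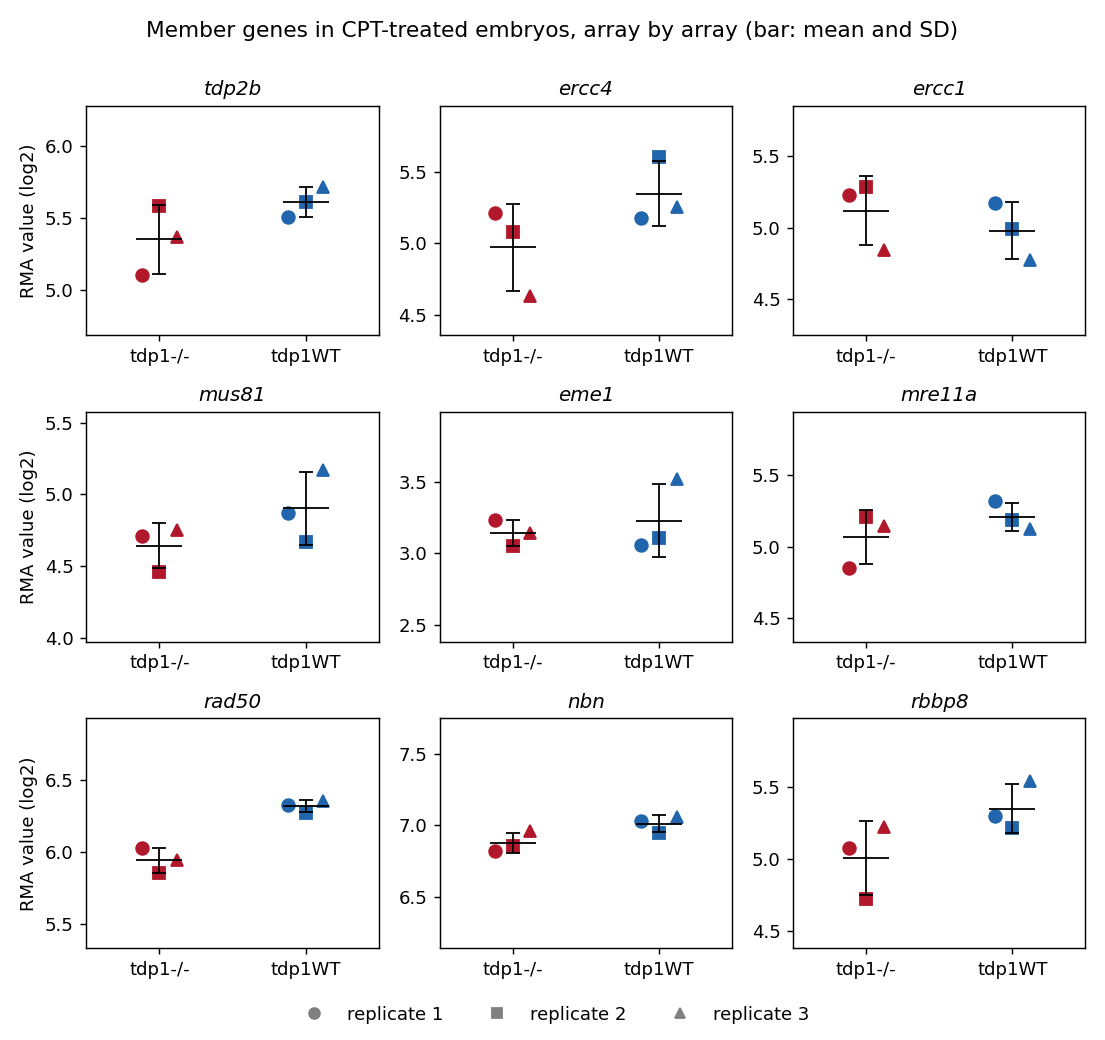
RMA value (log2, vertical axis, the same span of 1.6 in each panel) of the 9 measured genes on each array, *tdp1-/-* left and *tdp1WT* right, with a symbol for each replicate number and a bar for the mean and SD (n = 3 arrays each). Only in *rad50* do all *tdp1-/-* arrays lie below all *tdp1WT* arrays, as they do in 4.08% of all genes.

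The mutated gene itself was measured first as a check of the labels. The *tdp1* row gave 5.18, 5.17 and 5.24 on the arrays of *tdp1-/-* replicates 1, 2 and 3, against 5.59, 5.34 and 5.85 on those of *tdp1WT* replicates 1, 2 and 3. All *tdp1-/-* arrays lay below all *tdp1WT* arrays, as they did in 4.08% of all genes, and the reverse held in 3.64%. Where the probes of this row lie relative to the deletions was not analysed here. None of the 9 genes lies on the chromosome of *tdp1* in the GRCz12tu assembly. Markers of skeletal muscle, neurons, glia, lens, photoreceptors, pancreas, blood, skin, heart and germ cells were measured on every array, with *actc1b*, the muscle actin gene, between 11.82 and 11.86 throughout, while the 3 listed liver markers had no row under their names. The arrays correlated with Pearson's r between 0.969 and 0.988 over all rows.

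The gene *tdp2b*, one of 2 Tdp2 genes of the zebrafish, was not called in either direction in the embryos that lack Tdp1. It measured 5.10, 5.58 and 5.37 on the 3 *tdp1-/-* arrays, against 5.51, 5.61 and 5.72 on the 3 *tdp1WT* arrays (log2 values, replicates 1 to 3). The genotypes overlapped through a single array, *tdp1-/-* replicate 2, which lay above *tdp1WT* replicate 1. The log2 fold change was -0.26 (standard error 0.17, 95% confidence interval from -0.65 to 0.13), with a limma adjusted p of 1 and an exact two-sided permutation p of 0.2. As a ratio of *tdp1-/-* to *tdp1WT* the interval ran from 0.636 to 1.09. The *tdp1-/-* array was the lower in all 3 same-numbered pairs, with differences of -0.41, -0.03 and -0.35 for replicates 1, 2 and 3. No row carries the name of the other Tdp2 gene, *tdp2a*, which is not analysed here.

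Xpf-Ercc1 cuts the strand on the 5′ side of a lesion, with Xpf (the product of *ercc4*) as the nuclease and Ercc1 as the partner that binds DNA. The 2 genes of this heterodimer had log2 fold changes of opposite sign. The *ercc4* row measured 5.21, 5.08 and 4.63 on the *tdp1-/-* arrays, against 5.18, 5.60 and 5.25 on the *tdp1WT* arrays (log2 values, replicates 1 to 3). The genotypes overlapped, since *tdp1-/-* replicate 1 lay between *tdp1WT* replicates 1 and 3, while *tdp1-/-* replicate 3 lay below all others. Its log2 fold change of -0.37 (standard error 0.20, 95% confidence interval from -0.85 to 0.10) had a limma adjusted p of 1 and an exact two-sided permutation p of 0.2. The same-numbered pairs differed by 0.03, -0.53 and -0.62.

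The *ercc1* row measured 5.23, 5.29 and 4.84 on the *tdp1-/-* arrays, against 5.17, 4.99 and 4.78 on the *tdp1WT* arrays (log2 values, replicates 1 to 3). The array of replicate 3 was the lowest of both genotypes, and the *tdp1-/-* array was the higher in each same-numbered pair, by 0.06, 0.30 and 0.07. Over the genotypes the log2 fold change was 0.14 (standard error 0.18, 95% confidence interval from -0.29 to 0.56), with a limma adjusted p of 1 and an exact two-sided permutation p of 0.5. This was the only one of the 9 genes with a positive value, and its interval of the ratio, from 0.821 to 1.48, reached the highest of the 9.

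Within each array the log2 value of *ercc4* was also set against that of *ercc1*, which cancels what the array does to both. Relative to the mean of *tdp1WT*, this difference was -0.38, -0.57 and -0.58 on the *tdp1-/-* arrays, against -0.36, 0.25 and 0.11 on the *tdp1WT* arrays (log2, replicates 1 to 3). The genotypes did not overlap, but *tdp1WT* replicate 1 lay next to the *tdp1-/-* arrays. The log2 fold change of *ercc4* thus differed from that of *ercc1* by -0.51 (exact permutation test, two-sided, p = 0.1, which is the smallest that 3 arrays against 3 allow, and 0.3 after adjustment over 6 partner pairs). The 6 pairs were chosen after the values of the genes were seen, and the adjustment does not cover that choice.

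Mus81-Eme1 cuts branched DNA such as a stalled or broken replication fork, with Mus81 as the nuclease. The *mus81* row measured 4.71, 4.46 and 4.75 on the *tdp1-/-* arrays, against 4.87, 4.66 and 5.17 on the *tdp1WT* arrays (log2 values, replicates 1 to 3). Only *tdp1WT* replicate 2 fell among the *tdp1-/-* arrays. The array of replicate 2 was the lowest of both genotypes, and the same-numbered pairs differed by -0.16, -0.20 and -0.42, all in 1 direction. The log2 fold change was -0.26 (standard error 0.18, 95% confidence interval from -0.68 to 0.16), with a limma adjusted p of 1 and an exact two-sided permutation p of 0.3.

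The partner *eme1* had the log2 fold change nearest 0 of the 9 genes, -0.09 (95% confidence interval from -0.48 to 0.31, exact permutation test, two-sided, p = 0.8). It measured 3.23, 3.05 and 3.14 on the *tdp1-/-* arrays, against 3.06, 3.11 and 3.52 on the *tdp1WT* arrays (log2 values, replicates 1 to 3). The genotypes overlapped fully apart from *tdp1WT* replicate 3, and without that array the log2 fold change was 0.059. The row is dim: its mean lies below the median of all rows. The difference between *mus81* and *eme1* within an array changed by -0.17 between the genotypes (exact permutation test, two-sided, p = 0.2, and 0.4 adjusted over the 6 partner pairs).

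The Mre11 complex holds the broken end and starts its resection. Mre11 is the nuclease, Rad50 the ATPase whose long coiled coils tether DNA ends, and Nbn (Nbs1) the subunit that recruits the kinase Atm. All 3 genes had negative log2 fold changes, from -0.38 to -0.13, and *rad50* was the one called. It measured 6.03, 5.86 and 5.94 on the *tdp1-/-* arrays, against 6.33, 6.27 and 6.36 on the *tdp1WT* arrays (log2 values, replicates 1 to 3). Every *tdp1-/-* array lay below every *tdp1WT* array, as in 4.08% of all genes. The gap between the groups exceeded the spread within either, with an SD of 0.09 in *tdp1-/-* and 0.04 in *tdp1WT* (n = 3 arrays each).

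The log2 fold change of *rad50* was -0.38 (standard error 0.13, 95% confidence interval from -0.68 to -0.07), or 1.30-fold lower, with an unadjusted p of 0.0232 and an adjusted p of 1 in limma and an exact two-sided permutation p of 0.1. The same-numbered pairs differed by -0.30, -0.42 and -0.41. Among the 9 genes this is the one inside the call threshold. The next by p, *rbbp8*, had an unadjusted p of 0.0969 in limma. Leaving out 1 array kept the direction of *rad50* but ended its call in 3 of 6 cases, with log2 fold changes of -0.33 without *tdp1-/-* replicate 2, -0.37 without *tdp1WT* replicate 1 and -0.36 without *tdp1WT* replicate 3.

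The other subunits had smaller log2 fold changes. The *nbn* row measured 6.82, 6.86 and 6.96 on the *tdp1-/-* arrays, against 7.03, 6.94 and 7.06 on the *tdp1WT* arrays (log2 values, replicates 1 to 3). The groups overlapped only where *tdp1-/-* replicate 3 lay just above *tdp1WT* replicate 2. Replicates were close here too, and the log2 fold change was -0.13 (standard error 0.13, 95% confidence interval from -0.44 to 0.18), with a limma adjusted p of 1 and an exact two-sided permutation p of 0.2. All 3 same-numbered pairs were negative, from -0.21 to -0.08.

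The nuclease gene *mre11a* measured 4.85, 5.21 and 5.14 on the *tdp1-/-* arrays, against 5.32, 5.19 and 5.13 on the *tdp1WT* arrays (log2 values, replicates 1 to 3). A single array, *tdp1-/-* replicate 1, lay below the rest. The pair of replicate 1 differed by -0.46 and the other pairs by 0.02 each, and the log2 fold change over all arrays was -0.14 (95% confidence interval from -0.50 to 0.22, exact permutation test, two-sided, p = 0.5). Without *tdp1-/-* replicate 1 it was -0.03.

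Set against *nbn* within each array, *rad50* stood at -0.10, -0.31 and -0.32 on the *tdp1-/-* arrays, against -0.01, 0.02 and -0.01 on the *tdp1WT* arrays, relative to the *tdp1WT* mean (log2, replicates 1 to 3). The genotypes did not overlap, and the log2 fold change of *rad50* differed from that of *nbn* by -0.24 (exact permutation test, two-sided, p = 0.1, and 0.3 adjusted over the 6 pairs). Against *mre11a* the corresponding value was -0.23, with overlapping arrays (exact permutation test, two-sided, p = 0.3, and 0.45 adjusted). For *nbn* against *mre11a* it was 0.01.

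CtIP, the product of *rbbp8*, stimulates the nuclease activity of the Mre11 complex on blocked ends. The *rbbp8* row measured 5.07, 4.72 and 5.22 on the *tdp1-/-* arrays, against 5.30, 5.22 and 5.54 on the *tdp1WT* arrays (log2 values, replicates 1 to 3). The groups met at a single point, where *tdp1-/-* replicate 3 lay just above *tdp1WT* replicate 2. In both genotypes replicate 2 was the lowest array and replicate 3 the highest. The log2 fold change was -0.34 (standard error 0.18, 95% confidence interval from -0.77 to 0.08), with a limma adjusted p of 1 and an exact two-sided permutation p of 0.2.

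The same-numbered pairs of *rbbp8* differed by -0.22, -0.50 and -0.32. Over all rows the deviations of same-numbered arrays correlated with r from 0.203 to 0.29. A limma fit that holds the replicate number as a block called *rbbp8* lower (95% interval from -0.66 to -0.03, unadjusted p of 0.0379, adjusted p of 0.77). With the block 2 of the 9 genes, *rad50* and *rbbp8*, were called lower and none higher, where the same fit called 2.49% of all genes lower and 1.55% higher. The log2 fold change of *rbbp8* against that of *mre11a* was -0.20, with overlapping arrays (exact permutation test, two-sided, p = 0.6, and 0.72 adjusted).

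**Figure D2:**
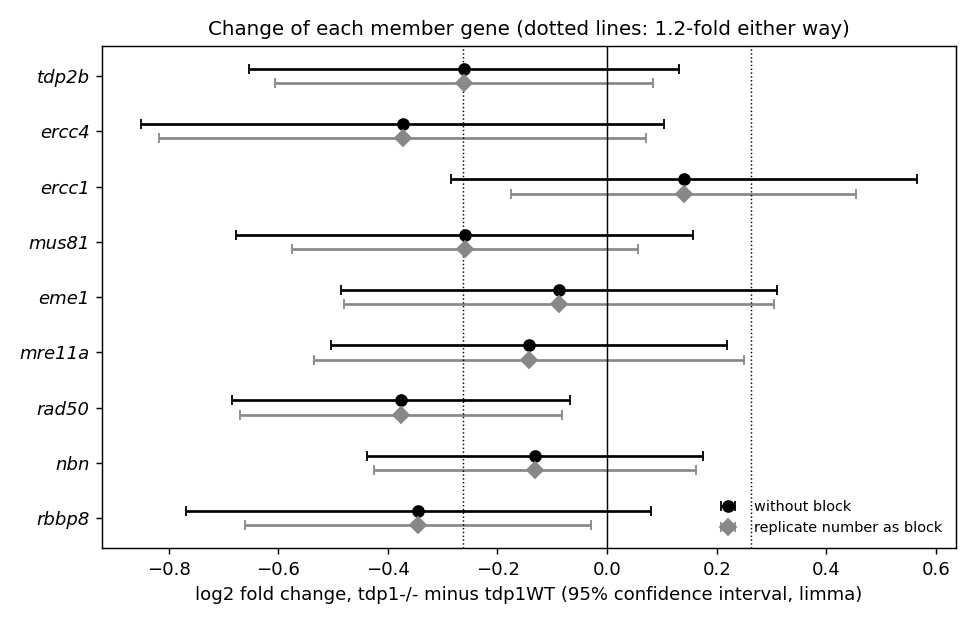
Log2 fold change of each gene (horizontal axis, *tdp1-/-* minus *tdp1WT*) with its 95% confidence interval from limma, without a block (black circles) and with the replicate number as a block (grey diamonds). The interval of *rad50* lies below 0 in both fits and that of *rbbp8* only with the block, while *ercc1* is the only gene to the right of 0.

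The upper ends of the 95% confidence intervals give the largest rise that each interval includes. As ratios of *tdp1-/-* to *tdp1WT*, they were 0.954 for *rad50*, 1.06 for *rbbp8*, 1.07 for *ercc4*, 1.09 for *tdp2b*, 1.12 for *mus81*, 1.13 for *nbn* and 1.16 for *mre11a*. Only *eme1*, with 1.24, and *ercc1*, with 1.48, had intervals that reached past a 1.2-fold rise. These intervals are for single genes, without adjustment for the number of genes, and array summaries of this kind tend to understate the fold changes of dim rows.

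Over the 3 same-numbered pairs and 9 genes, 20 of 27 differences were negative, beside 51.3% over all genes. The 27 differences come from 6 arrays and are not independent, since all 9 genes of a pair share the same arrays. The negative differences were spread over the replicate numbers, with 6, 7 and 7 of the 9 genes for replicates 1, 2 and 3. In *tdp2b*, *mus81*, *rbbp8*, *rad50* and *nbn* the *tdp1-/-* array was the lower in every pair, which makes 5 of 9 genes, where 16.8% of all genes had this pattern. Across the 6 arrays, 6 of the 9 genes had their highest value on *tdp1WT* replicate 3, and 8 of the 9 had their lowest on a *tdp1-/-* array. The remaining lowest value was that of *ercc1* on *tdp1WT* replicate 3. The share of all genes with their highest or lowest value on these arrays was not computed. Over all genes the median deviation from the gene's own mean was 0.037 on *tdp1WT* replicate 3 and 0.038 on *tdp1-/-* replicate 3.

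**Figure D3:**
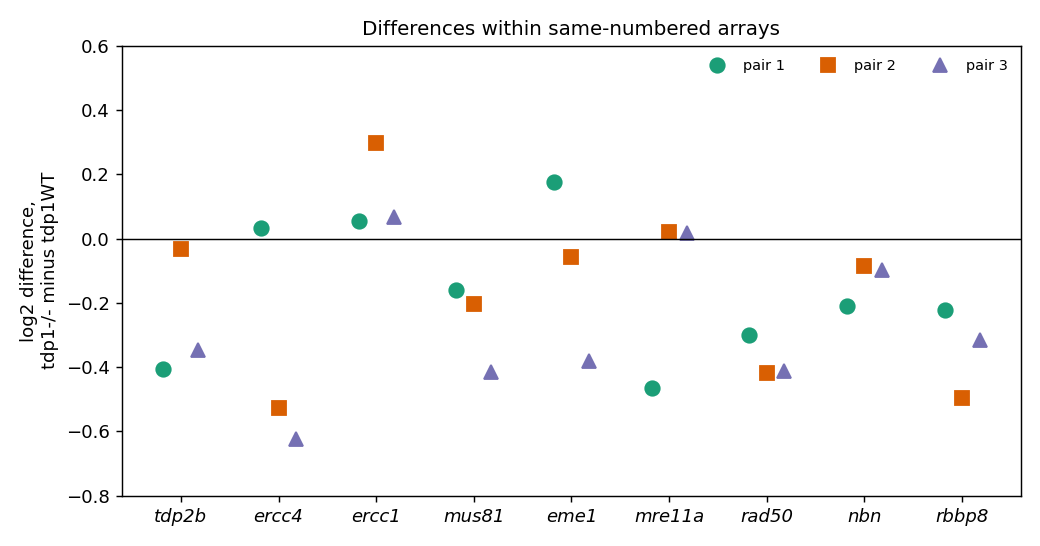
Log2 difference between the *tdp1-/-* and the *tdp1WT* array of the same replicate number (vertical axis) for each gene, with a symbol and colour for each of the 3 pairs. Of the 27 points 20 lie below 0, the pairs of *rad50* lie close together and those of *ercc4*, *eme1* and *mre11a* lie on both sides of 0.

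Other enzymes that trim or cut blocked ends gave no call. Of 18 listed nucleases and end-processing enzymes 13 were measured, and none was under an unadjusted p of 0.05 in limma. With 1.04% of all genes called lower and 0.852% higher, the lack of a call does not set this short list apart. Their median log2 fold change was -0.07, with 9 of 13 negative, beside 51.4% of all genes. The values nearest to a call were those of *fen1*, the flap endonuclease of replication and repair, with a log2 fold change of -0.28 (standard error 0.17, adjusted p of 1 from limma), and of *endog*, the mitochondrial endonuclease G, with -0.15. The nuclease gene *apex2*, a candidate of the study, had 0.02 (standard error 0.29, limma confidence interval from -0.66 to 0.69). Its row is dim like that of *eme1*, with mean log2 values of 3.21 in *tdp1-/-* and 3.19 in *tdp1WT*. The same-numbered pairs of *apex2* differed by 0.93, -0.27 and -0.61, in both directions. Its small log2 fold change therefore does not show that *apex2* was unchanged between the genotypes. The gene *eme2*, whose product is an alternative partner of Mus81, had 0.01, and *slx1b*, a nuclease bound by the Slx4 scaffold, had -0.09.

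Of 21 listed partners of resection and of the nuclease scaffolds 16 were measured. One, *rpa2*, a subunit of the protein that coats resected single strands, was called lower and none was called higher. Over all genes 1.04% were called lower and 0.852% higher. The *rpa2* row measured 6.81, 6.56 and 7.002 on the *tdp1-/-* arrays, against 7.49, 7.13 and 7.42 on the *tdp1WT* arrays (log2 values, replicates 1 to 3). All *tdp1-/-* arrays of this row lay below all *tdp1WT* arrays, as in 4.08% of all genes. The log2 fold change of *rpa2* was -0.56 (standard error 0.18, adjusted p of 1 from limma). The other subunits gave -0.33 for *rpa1*, which was called lower with the replicate block (adjusted p of 0.77 in limma), and -0.01 for *rpa3*. With the block 2 of the 16 genes, *rpa1* and *rpa2*, were called lower, where that fit called 2.49% of all genes lower. Of the 16 genes 15 had values below 0, beside 51.4% of all genes. The median was -0.09, and *wrn*, a helicase gene, was the exception with 0.14. The checkpoint kinase gene *atm*, whose product the Mre11 complex activates, had -0.09.

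The topoisomerase genes, whose products form the adducts, showed no call among 8 measured of 9 listed, none under an unadjusted p of 0.05 in limma and a median log2 fold change of -0.10. The same rule called 1.04% of all genes lower and 0.852% higher, so the lack of a call does not set this short list apart. The target of CPT is encoded by *top1a* and *top1b*, which had log2 fold changes of -0.12 (standard error 0.17) and -0.21 (standard error 0.17). The topoisomerase 3 gene *top3a*, next by p to *top1b*, had -0.19. For *top2a* and *top2b*, whose products leave the ends that Tdp2 prefers, the values were -0.06 and -0.09.

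Markers of proliferation had lower values in the same *tdp1-/-* arrays. Of 18 listed proliferation markers 14 were measured. All 14 log2 fold changes were negative, with -0.27 at the median, where 51.4% were negative over all genes. The 3 called lower were the cell cycle kinase genes *cdk1* (-0.58), which lies on the chromosome of *tdp1*, and *aurka* (-0.40), and the thymidylate synthase gene *tyms* (-0.54), and none was called higher. None was under an adjusted p of 0.05 in limma. Over all genes the same rule called 1.04% lower and 0.852% higher. In 4 of the 14 every *tdp1-/-* array lay below every *tdp1WT* array, a pattern of 4.08% of all genes. With the replicate block 4 were lower, where that fit called 2.49% of all genes lower. The genes *cdk1* and *tyms* were called again and *aurka* was not. The ribonucleotide reductase gene *rrm1* (-0.54) and the replicative helicase gene *mcm3* (-0.34) were called in addition. The adjusted p of these 4 in the block fit of limma ran from 0.739 to 0.77. The mean log2 value over the 14 ranged from 6.07 to 6.35 on the *tdp1-/-* arrays and from 6.36 to 6.64 on the *tdp1WT* arrays, and the lowest single value was 4.25, of *ccna2*. Array by array the mean of the markers was 6.35, 6.07 and 6.30 in *tdp1-/-* and 6.64, 6.36 and 6.61 in *tdp1WT* (replicates 1 to 3). Replicate 2 was thus the lowest in both genotypes. Of the 9 genes this held for *mus81*, *rad50* and *rbbp8* and for no other. The share of all genes with replicate 2 lowest in both genotypes was not computed, so this count cannot be read as a trait of the 9. The median over all genes was also lowest on replicate 2, with 6.25 in *tdp1-/-* and 6.26 in *tdp1WT*. The part of dividing cells in the values of the 9 genes was not tested.

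Some markers of tissues also had lower values in *tdp1-/-* embryos, by as much as the 9 genes or more. Of 32 listed tissue markers 27 were measured, with a median log2 fold change of -0.08. The log2 fold change was below 0 in 18 of the 27, beside 51.4% of all genes. The 3 called lower were *myh6*, a myosin heavy chain gene of the heart, with -0.70 (standard error 0.23), the keratin gene *krt5* of the skin with -0.50 (standard error 0.18) and *alas2*, which starts heme synthesis in erythrocytes, with -0.47 (standard error 0.20), and none was called higher. Each had an adjusted p of 1 in limma. Over all genes 1.04% were called lower and 0.852% higher. Other markers of the same tissues were nearer 0, with -0.08 for *myl7* of the heart, -0.14 for *krt4* of the skin and -0.06 and -0.09 for the globin genes *hbae3* and *hbbe2*. With the replicate block *myh6* and *krt5* were called lower, each with an adjusted p of 0.739 in limma, and *alas2* was not. The glial gene *gfap* (-0.45) was called lower too, with an adjusted p of 0.77 in that fit of limma. In that fit 3 of the 27 markers were called lower, beside 2.49% of all genes. The part of these tissues in the values of the 9 genes was not tested.

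**Figure D4:**
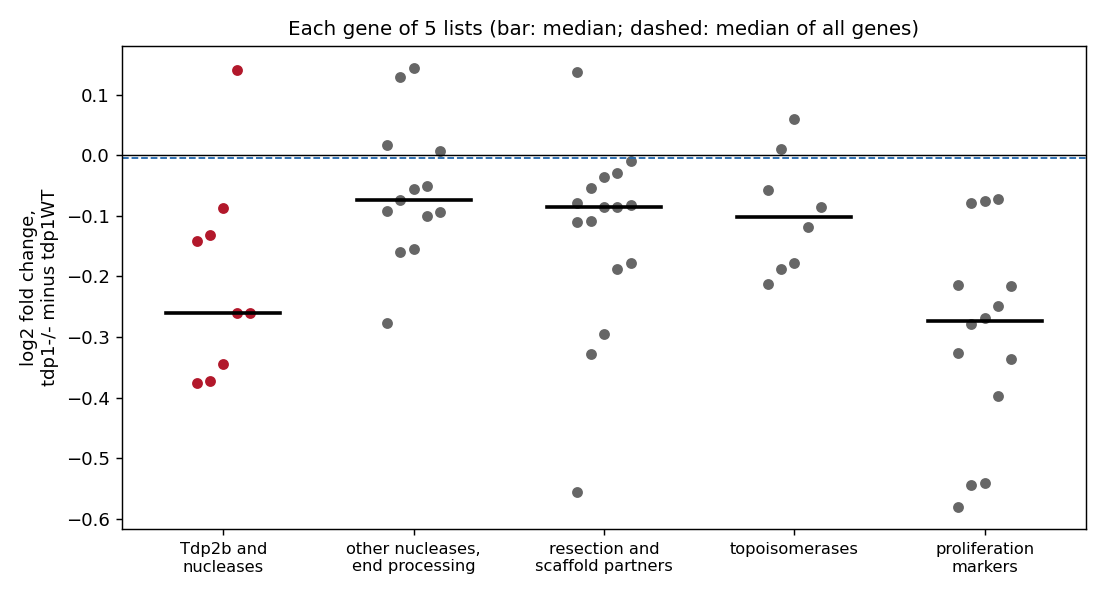
Log2 fold change (vertical axis, *tdp1-/-* minus *tdp1WT*) of each measured gene in 5 lists, with a bar at the median of the list and a dashed line at the median of all genes. The medians are -0.26 for the 9 genes, -0.07 for other nucleases and end-processing enzymes, -0.09 for partners of resection and of the scaffolds, -0.10 for topoisomerases and -0.27 for proliferation markers.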

How the data were processed

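The authors hybridised total RNA of whole embryos to Affymetrix arrays after WT plus labelling and deposited log2 values, 1 per row and array, which they had processed with RMA (background correction, quantile normalization and summary of probes) in the Transcriptome Analysis Console. The deposited arrays still differed in level, with medians over all rows from 4.66 (*tdp1-/-* replicate 1) to 4.87 (*tdp1-/-* replicate 3). With each array centred on its median, the median log2 fold change of the 9 genes was -0.28. The genome build of the rows is not given in the sources used here. Groups and replicate numbers came from the sample titles. Of the 75212 rows, 20806 have 1 symbol in the platform annotation, 855 have several and 53551 none. Symbols were updated by Entrez ID to RefSeq names of GRCz12tu (20323 matched), and a gene was represented by its row with the highest mean.

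R 4.3.3 and limma 3.58.1 (lmFit, eBayes) gave log2 fold changes, standard errors, 95% confidence intervals and Benjamini-Hochberg adjusted p over all rows, and the script was tested on simulated data. Single values were also compared by exact permutation of the 6 arrays, which cannot give a p below 0.1. The 10 genes, the lists and the tests were chosen with earlier results of these data known, and the 6 partner comparisons after the values were seen. Listed genes are named if called in either fit. In the repair, topoisomerase and proliferation lists the 2 smallest p are named too, and other genes are named if they are *actc1b*, other markers of a tissue with a call, or bear on the 9 genes by their role, and those other genes were chosen after their values were seen.

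The samples are titled as biological replicates. Deviations from the genotype means correlated between same-numbered arrays with r of 0.203, 0.216 and 0.29. Values for arrays of different numbers are not given here, so these r cannot decide whether the numbers mark a shared origin. A fit with the replicate block was run beside the unblocked one as an alternative. The unblocked fit and the exact permutations do not use the replicate numbers. Alternatives were 2 further normalizations, array weights, a trend in eBayes, filters on dim and on duplicated rows, and leaving out each array. The number of arrays, 3 of each genotype, limits the precision of every value. No set test was run, and no sequence is shown.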

Additional observations from a re-analysis of the deposited data

How the results depend on the processing

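The median log2 fold change of the 9 genes stayed negative in every alternative, between -0.27 and -0.14 when 1 array was left out, with the values nearest 0 without *tdp1-/-* replicate 1 (-0.14) and without *tdp1WT* replicate 3 (-0.18). The count called lower was 1 as reported, 2 with the replicate block, and from 0 to 1 when 1 array was left out. No gene was called higher or was under an adjusted p of 0.05 in limma in any alternative. The sign of a single gene turned once, for *eme1*, which lay between -0.17 and 0.059 when 1 array was left out, with 0.059 without *tdp1WT* replicate 3. For *rad50* the log2 fold change lay between -0.42 and -0.33 over 14 alternatives, with adjusted p from 0.722 to 1. The block changed no other call among the 9 genes than that of *rbbp8*. Among all rows 970 were called lower and 1718 higher. A further quantile normalization gave 1548 lower and 1566 higher, which leaves almost no excess of higher rows, the block 1864 lower and 2966 higher, leaving out rows below the median level 600 lower and 740 higher, with fewer rows tested, and leaving out 1 array from 781 to 1275 lower and from 1005 to 3799 higher. The cause of these shifts was not tested. The row of *eme1* fell under the filter on dim rows and has no value there. Taking the mean over all rows of a symbol changed nothing, since each of the 9 has 1 row. With 3 arrays of each genotype, differences of the size seen in most of the 9 genes were not detectable beyond the spread of the arrays.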
